A study of Mus musculus with 6 samples.

Results

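The 10 genes described here encode proteins of the sarcomeric Z-disc and the muscle ankyrin repeat proteins, chosen by name as *Myoz1*, *Myoz2*, *Myot*, *Ldb3*, *Tcap*, *Csrp3*, *Xirp1*, *Ankrd1*, *Ankrd2* and *Ankrd23*. They are 10 of the 18089 genes in the deposited table, and all 10 were listed there and passed edgeR's filter on low counts. RNA came from the ischemic gastrocnemius, a calf muscle, of young adult male C57BL/6 mice, 7 days after hindlimb ischemia (HLI), in which the femoral artery of the left hind limb was tied off and a segment removed. The WT group held 3 libraries and the GPR174-KO group 3 libraries from mice of the *Gpr174*-/Y line, which lacks the G protein-coupled receptor GPR174 in all cells. Both groups had the operation, and no unoperated muscle was analysed here, so each difference is one between genotypes in injured muscle. The replicates are separate libraries, but p-values measure only the spread between these libraries.

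The Z-disc is the structure that borders each sarcomere of a striated muscle fibre, anchors the thin filaments through alpha-actinin and passes force sideways to the membrane. Some of its proteins also serve as stretch and stress sensors: the calsarcins (*Myoz1*, *Myoz2*) tether the phosphatase calcineurin, and the ankyrin repeat proteins bind titin and can move to the nucleus. *Ankrd1*, *Xirp1* and *Csrp3* are known as genes that respond to injury, denervation or load, whereas *Ankrd2* is known from slow fibres and from stretched muscle.

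The targeted gene, *Gpr174*, was barely detected in either group, with estimated counts of 8, 2 and 5 for WT replicates 1, 2 and 3 and of 1, 0 and 0 for the GPR174-KO libraries. Each GPR174-KO library was below each WT library, although such small counts give no reliable fold. Library totals ranged from 18417077 to 18695013 counts in WT and from 19173036 to 19394469 in GPR174-KO. Genes of heart muscle summed to at most 2.19 CPM (counts scaled to library size after TMM normalization) in every library, whereas a reference of 12 genes shared by skeletal muscle fibres took between 4.40% and 9.24% of all counts, so the labelled tissue matched its markers. Libraries stood apart within groups: replicate 2 lay between replicates 1 and 3 for all 10 members in both groups. It did so for 77.1% (WT) and 68.2% (GPR174-KO) of the 9972 genes with a mean of at least 10 CPM. On average 33.3% would be so if the order of 3 independent libraries carried nothing. All genes are measured in the same libraries, so a single set of 3 can lie far from that average. These shares therefore cannot decide whether the libraries are independent. Whether the libraries of a group are independent of one another was not tested, and every p-value takes them as independent. Results that change without a library are therefore given with and without it.

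Promoter sequences show the letters before the start sites of these genes. They were taken from RefSeq promoter entries of GRCm38.p6, which held 9 entries for 6 of the 10 members, and the 250 bases before each start site were searched on both strands. Motifs were the TEAD core (CATTCC, which reads GGAATG on the other strand), the E-box bound by myogenic basic helix-loop-helix factors (CANNTG) and the CArG box of serum response factor. An E-box was present in 5 of the 6 members and in 66.2% of the 32851 promoters of the table. The TEAD core was present in 2 members, *Ankrd1* and *Ankrd23*, and in 12.6% of all promoters. A CArG box was present in 1 member (*Ldb3*) and in 1.47% of all promoters. A member was counted if any of its entries held the motif, whereas the percentages count each entry, so these are unlike units. The *Ankrd2* promoter is shown because this gene had the largest change. It covers chr19:42035777-42035999 on the plus strand, 223 bases that end before the annotated 5′ untranslated region, with its E-boxes in capitals.
Ankrd2 promoter: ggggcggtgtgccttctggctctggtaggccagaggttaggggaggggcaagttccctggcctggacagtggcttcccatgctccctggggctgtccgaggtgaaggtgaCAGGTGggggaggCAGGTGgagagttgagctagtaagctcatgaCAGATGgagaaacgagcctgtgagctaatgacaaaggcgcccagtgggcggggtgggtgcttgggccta
The windows below are 30 bases long, read 5′ to 3′ on the strand of the gene, with the motif in capitals. They are shown for the 3 members with a TEAD core or a CArG box, of which *Ankrd1* did not pass the test between genotypes and the other two did.
Ankrd1, TEAD core 210 bases upstream, chr19:36120037-36120066, minus strand: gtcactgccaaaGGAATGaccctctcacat
Ankrd1, TEAD core 123 bases upstream, chr19:36119950-36119979, minus strand: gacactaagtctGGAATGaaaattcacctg
Ankrd23, TEAD core 120 bases upstream, chr1:36535842-36535871, minus strand: cccagtgggccaCATTCCcagaacggtatt
Ldb3, CArG box 35 bases upstream, chr14:34588697-34588726, minus strand: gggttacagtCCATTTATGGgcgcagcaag
Distances are from the start site of the promoter table. In GENCODE M21 the transcript that carried all *Ankrd1* counts starts further upstream, so both *Ankrd1* windows lie inside that annotated transcript. The *Ankrd23* window lies upstream of its main transcript. A second annotated *Ankrd23* transcript, with 1.06% to 11.0% of the gene's counts in a library, starts further upstream than this window. A match gives letters only, and binding was not measured.

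To ask how deletion of GPR174 changed these genes in the ischemic muscle, edgeR's quasi-likelihood test was fitted to the 6 libraries, with Benjamini-Hochberg adjustment over 14395 genes. Of the 10 members, 8 were lower in GPR174-KO muscles at an adjusted p of 0.05, where 27.6% of all tested genes were lower, and 0 were higher, where 27% were higher. All 8 also passed an absolute log2 fold change of 1, against 4.84% of all tested genes lower and 3.45% higher by both thresholds. The members together took between 0.678% and 0.686% of all counts in WT and between 0.344% and 0.414% in GPR174-KO libraries. *Ankrd2* and *Tcap* fell most, and *Ankrd1* and *Xirp1* were the 2 members that did not pass the test. The groups did not overlap for 7 members, where 65.6% of all tested genes did not overlap, so that share is near the background, unlike the count of members past both thresholds. The median log2 fold change of the members was -1.22, and that of all tested genes was 0.00. Without GPR174-KO replicate 3, 5 members passed both thresholds, as did 1207 of 14525 tested genes in either direction. When libraries were scaled to their total counts and not by TMM, 4 members did, as did 1498 of 14395 genes. In either case 7 members were lower at an adjusted p of 0.05, where 3396 and 2010 of all tested genes were lower. Total-count scaling shifted the median of all genes by 0.27 on the log2 scale. With replicates 1 and 3 of each group alone, 0 members and 0 genes in all passed edgeR's adjusted p of 0.05 (smallest adjusted p = 0.0542). In that fit 7 members had an unadjusted p under 0.05, as did 5026 of the 14447 genes tested. In bulk muscle, fewer fibres and less RNA per fibre cannot be told apart.

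**Figure D1:**
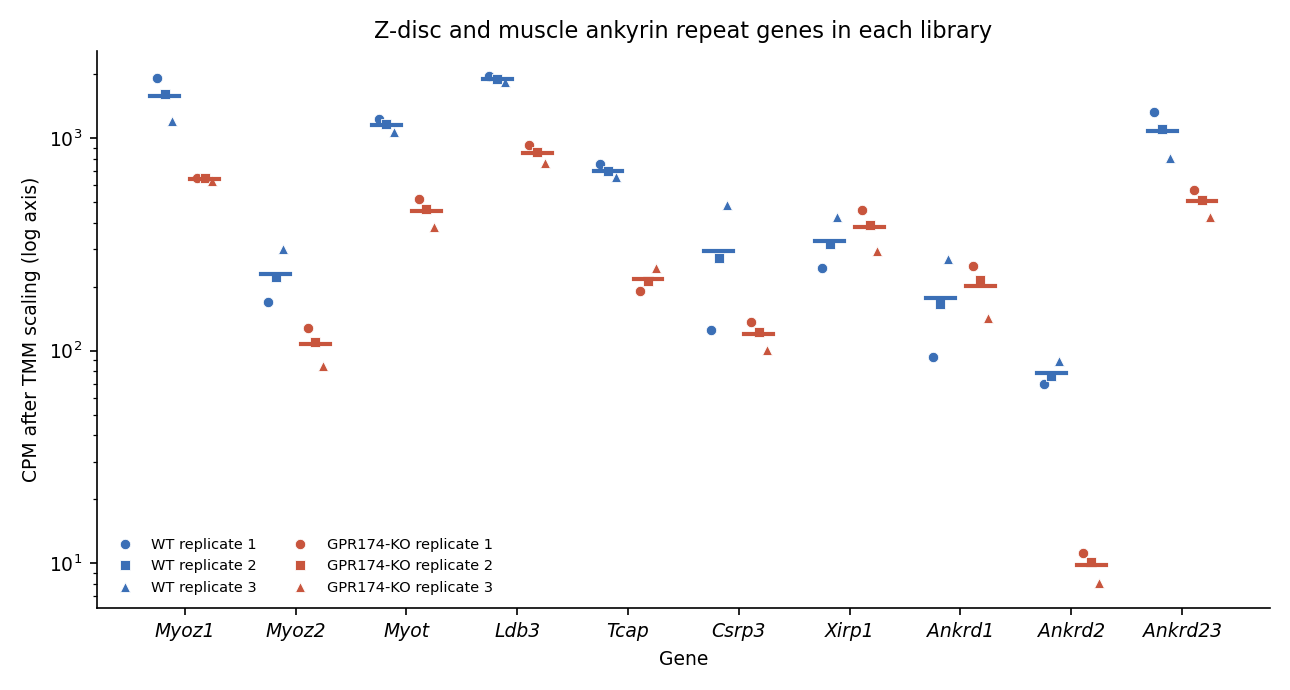
Expression of the 10 genes in each library, in CPM after TMM scaling on a log axis, with circles, squares and triangles for replicates 1, 2 and 3 and a bar for the group mean. *Ankrd2* sits between 70.0 and 89.3 CPM in WT and between 8.14 and 11.2 CPM in GPR174-KO, whereas the points of *Ankrd1* and *Xirp1* overlap between groups.

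Among the structural genes, *Ldb3* encodes ZASP, the PDZ and LIM domain protein that holds alpha-actinin at the Z-disc. It had 1952, 1900 and 1829 CPM in WT replicates 1, 2 and 3, against 926, 857 and 759 CPM in GPR174-KO replicates 1, 2 and 3, the order used for every gene that follows. The WT libraries agreed closely, with a highest-to-lowest ratio of 1.07, and every GPR174-KO library lay far below them. The log2 fold change was -1.16 (SE 0.10, adjusted p = 0.000717 in edgeR's quasi-likelihood test), or 2.24-fold lower.

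*Myot* encodes myotilin, which cross-links actin at the Z-disc, and was measured at 1221, 1159 and 1068 CPM in WT against 516, 465 and 380 CPM in GPR174-KO libraries. The groups were well separated, by more than the spread of either one. It fell by 1.34 on the log2 scale (SE 0.13, adjusted p = 0.000813 in edgeR's quasi-likelihood test).

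*Tcap* encodes telethonin, the cap that joins the ends of a pair of titin molecules at the Z-disc. Its level was 751, 702 and 652 CPM in WT and 191, 212 and 244 CPM in GPR174-KO. The groups were far apart, and *Tcap* was the single member that was highest in GPR174-KO replicate 3 and not in replicate 1. *Tcap* was 3.25-fold lower (log2 fold change -1.70, SE 0.11, adjusted p = 0.000415 in edgeR's quasi-likelihood test), the second largest decrease of the 10.

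The calsarcins *Myoz1* and *Myoz2*, of fast and of slow and cardiac fibres respectively, both fell. *Myoz1* had 1909, 1615 and 1198 CPM in WT and 651, 650 and 630 CPM in GPR174-KO (log2 fold change -1.29, SE 0.17, adjusted p = 0.00151 in edgeR's quasi-likelihood test). *Myoz2* had 169, 221 and 299 CPM in WT and 127, 110 and 85.1 CPM in GPR174-KO (log2 fold change -1.10, SE 0.23, adjusted p = 0.00721). The WT library with the highest level differed, replicate 1 for *Myoz1* and replicate 3 for *Myoz2*, and neither gene overlapped between genotypes. The ratio of *Myoz2* to *Myoz1* FPKM, a level per transcript length, was 0.0990, 0.153 and 0.279 in WT and 0.220, 0.188 and 0.151 in GPR174-KO. These ratios overlapped, and the difference of the mean log2 ratio was 0.19 (2-sided exact permutation test, p = 0.8).

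*Csrp3*, which encodes the muscle LIM protein, was the least settled of the 8. It had 126, 272 and 483 CPM in WT and 137, 123 and 101 CPM in GPR174-KO, so WT replicate 1 lay inside the range of the GPR174-KO libraries. The highest WT library was 3.84 times the lowest, a spread reached by 0.261% of the 9972 abundant genes, whose median ratio was 1.15. The log2 fold change of -1.29 (SE 0.44) had an adjusted p of 0.0422 in edgeR's quasi-likelihood test. That call was lost in 12 of 17 alternative fits, including those without WT replicate 2 (adjusted p = 0.0869), WT replicate 3 (0.117), GPR174-KO replicate 1 (0.0895), GPR174-KO replicate 2 (0.105) and GPR174-KO replicate 3 (0.133). The log2 fold change was -0.72 without WT replicate 3, and without WT replicate 1 it was -1.64 and passed (adjusted p = 0.00208). With the replicate number as a block the log2 fold change was -1.10 (adjusted p = 0.126).

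The muscle ankyrin repeat genes did not move together. *Ankrd2* had 70.0, 76.4 and 89.3 CPM in WT and 11.2, 10.1 and 8.14 CPM in GPR174-KO, from counts between 1125 and 1590 in WT and between 175 and 235 in GPR174-KO. Every WT library was above every GPR174-KO library by a wide margin. The mean was 78.6 ± 9.85 CPM in WT and 9.83 ± 1.57 CPM in GPR174-KO (SD, n = 3; log2 fold change -3.00, SE 0.14, adjusted p = 0.000289 in edgeR's quasi-likelihood test). Its log2 fold change ranged from -3.10 to -2.62 over 17 alternative fits, and 16 of them passed the threshold.

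*Ankrd23*, a relative that also binds titin, was measured at 1325, 1106 and 808 CPM in WT and 571, 511 and 427 CPM in GPR174-KO. It had the highest FPKM of the 3 and was lower in each GPR174-KO library (log2 fold change -1.10, SE 0.20, adjusted p = 0.00404 in edgeR's quasi-likelihood test). An annotated gene on the same strand, *Gm42417*, shares 2109 exonic bases with it, so its reads could be split by the counting.

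*Ankrd1*, which encodes the cardiac ankyrin repeat protein, had 93.1, 166 and 269 CPM in WT and 250, 214 and 142 CPM in GPR174-KO. The groups overlapped almost completely, and the WT spread, 2.89 from lowest to highest, was reached by 0.742% of abundant genes. The log2 fold change was 0.20 (SE 0.38, adjusted p = 0.686 in edgeR's quasi-likelihood test), and without WT replicate 1 it was -0.10 (adjusted p = 0.777), without GPR174-KO replicate 1 0.01, without GPR174-KO replicate 3 0.40 and without WT replicate 3 0.64.

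*Xirp1*, which encodes an actin-binding Xin repeat protein, likewise overlapped, with 244, 316 and 424 CPM in WT and 459, 391 and 294 CPM in GPR174-KO. Its log2 fold change of 0.22 (SE 0.23, adjusted p = 0.460) did not pass edgeR's quasi-likelihood test. It had a log2 fold change of 0.05 without WT replicate 1, 0.06 without GPR174-KO replicate 1, 0.37 without GPR174-KO replicate 3 and 0.45 without WT replicate 3. An adjusted p above the threshold does not show that the genotypes were alike for either gene.

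**Figure D2:**
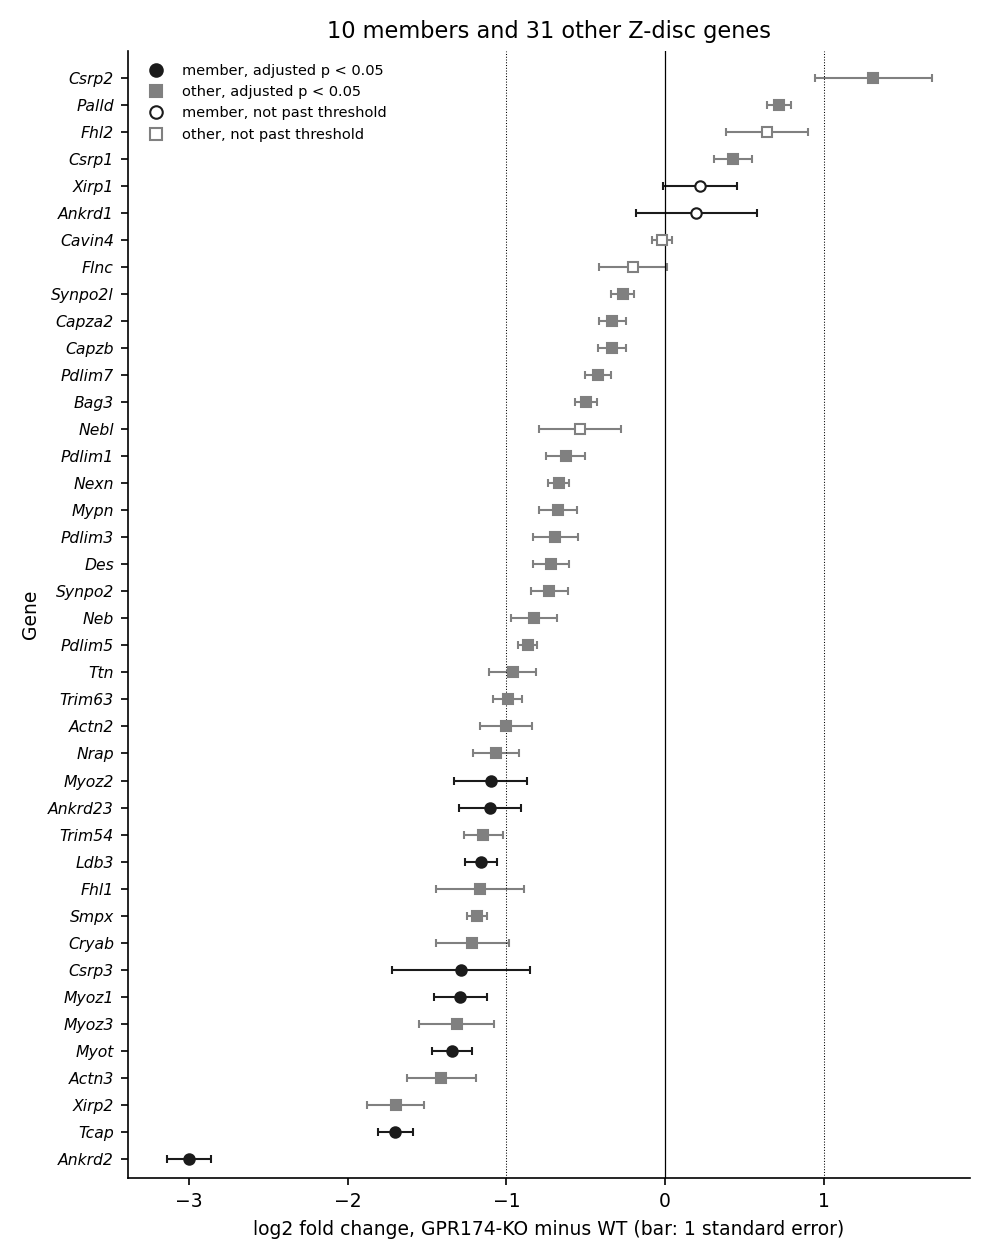
Log2 fold change of GPR174-KO against WT for the 10 members (black circles) and 31 other Z-disc genes (grey squares), with bars of 1 standard error, filled where the adjusted p was under 0.05. *Ankrd2* lies at -3.00, beyond every other gene shown, and *Xirp1* and *Ankrd1* lie near 0.

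The unequal movement of the ankyrin repeat genes was also read as a ratio inside each library, which needs no scaling between libraries. The ratio of *Ankrd1* to *Ankrd2* FPKM was 0.827, 1.35 and 1.87 in WT and 13.8, 13.2 and 10.9 in GPR174-KO. The 2 transcripts were thus at similar levels per length in WT, and *Ankrd1* was in excess in each GPR174-KO library. The mean log2 ratio differed by 3.29, or 9.81-fold (2-sided exact permutation, p = 0.1, which groups of 3 cannot go below, and 0.3 after adjustment over the 3 ratios tested). The ratio of *Ankrd1* to *Ankrd23* was 0.0924, 0.198 and 0.438 in WT and 0.576, 0.550 and 0.436 in GPR174-KO. WT replicate 3 was level with GPR174-KO replicate 3, and the mean log2 difference of 1.37 had p = 0.2 in the exact permutation test (0.3 after adjustment).

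**Figure D3:**
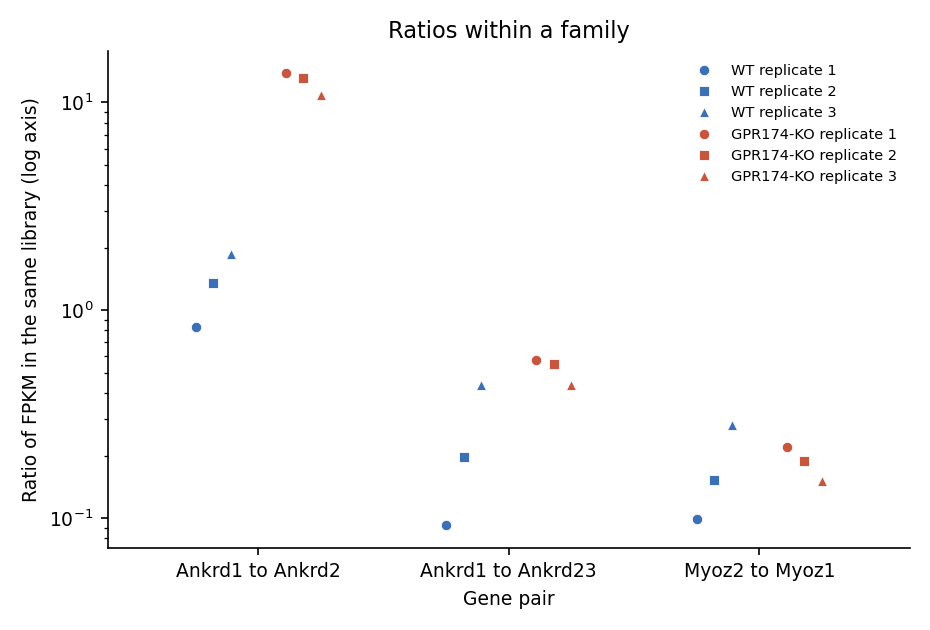
Ratio of the FPKM of 2 family members in the same library, on a log axis, for *Ankrd1* to *Ankrd2*, *Ankrd1* to *Ankrd23* and *Myoz2* to *Myoz1*, with 1 point for each library. The *Ankrd1* to *Ankrd2* ratio lies between 0.827 and 1.87 in WT and between 10.9 and 13.8 in GPR174-KO, and the other ratios overlap.

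Levels of different genes were compared by FPKM, as mean ± SD over 3 libraries. In WT muscle *Myoz1* was highest at 1142 ± 213, followed by *Ldb3* at 891 ± 8.50 and *Tcap* at 708 ± 19.0, and these 3 did not overlap in any library. *Myot* (488 ± 11.1), *Ankrd23* (432 ± 86.2) and *Csrp3* (320 ± 208) followed, and their ranges overlapped one another. *Myoz2* (189 ± 62.1), *Ankrd1* (94.7 ± 51.3), *Ankrd2* (67.3 ± 11.5) and *Xirp1* (50.4 ± 16.4) were lowest, with overlap between each pair of neighbours. In GPR174-KO muscle *Myoz1* (568 ± 4.70) and *Ldb3* (450 ± 41.1) remained the highest. *Ankrd1* (129 ± 33.0) there had a mean above *Myoz2* (106 ± 19.2), although they overlapped, and *Ankrd2* (10.1 ± 1.45) was lowest, below *Xirp1* (69.5 ± 13.8) in every library.

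Many genes of the contractile fibre were lower in GPR174-KO muscles, among them all 11 fast fibre genes. Each member's count was therefore set against the geometric mean of the 12 fibre reference genes of the same library. These 12 do not stand for all fibre genes. Of 8 slow fibre genes 3 were lower and 2 higher, and of 12 regenerating fibre genes 0 were lower and 9 higher. The reference holds no member, and all 12 of its genes were lower (median log2 fold change -1.14). Their log2 fold changes ran from -2.02 (*Mb*) to -0.55 (*Dmd*). That range holds the value of *Tcap* (-1.70) but not that of *Ankrd2* (-3.00). On this scale 6 members differed by less than 0.2 in the log2 ratio, 2 were lower by more than that and 2 higher. *Myoz1* (-0.09), *Myoz2* (0.10), *Myot* (-0.18), *Ldb3* (0.01), *Csrp3* (0.08) and *Ankrd23* (0.09) were these 6, and all overlapped between groups. *Ankrd2* (-1.83) and *Tcap* (-0.53) were lower without overlap, as were 1.16% of the 14315 genes with a count in every library. *Ankrd1* (1.46) and *Xirp1* (1.41) were higher without overlap, as were 92.1% of those genes, whose median was 1.18. The 2-sided exact permutation test gave each of these 4 genes p = 0.1, the smallest it can give. A larger increase than that of *Ankrd1* was found in 25.5% of all genes, and a larger decrease than that of *Ankrd2* in 0.0629%. With *Myoz1* and *Myot*, 4 members had a value below 0, and this count was 7 without WT replicate 1 or without GPR174-KO replicate 1. With fast fibre genes as the reference 2 members were below 0, *Ankrd2* at -1.34 and *Tcap* at -0.04. *Tcap* then overlapped between groups (p = 0.9, exact permutation test). The 6 members within 0.2 on the scale of the 12 fibre genes were all higher by more than 0.2 here. The 2-sided exact permutation test gave p = 0.1 for each of *Myoz1* (0.40), *Myot* (0.32), *Ldb3* (0.50) and *Ankrd23* (0.59). The same exact permutation test gave p = 0.3 for *Myoz2* (0.59) and p = 0.7 for *Csrp3* (0.58).

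**Figure D4:**
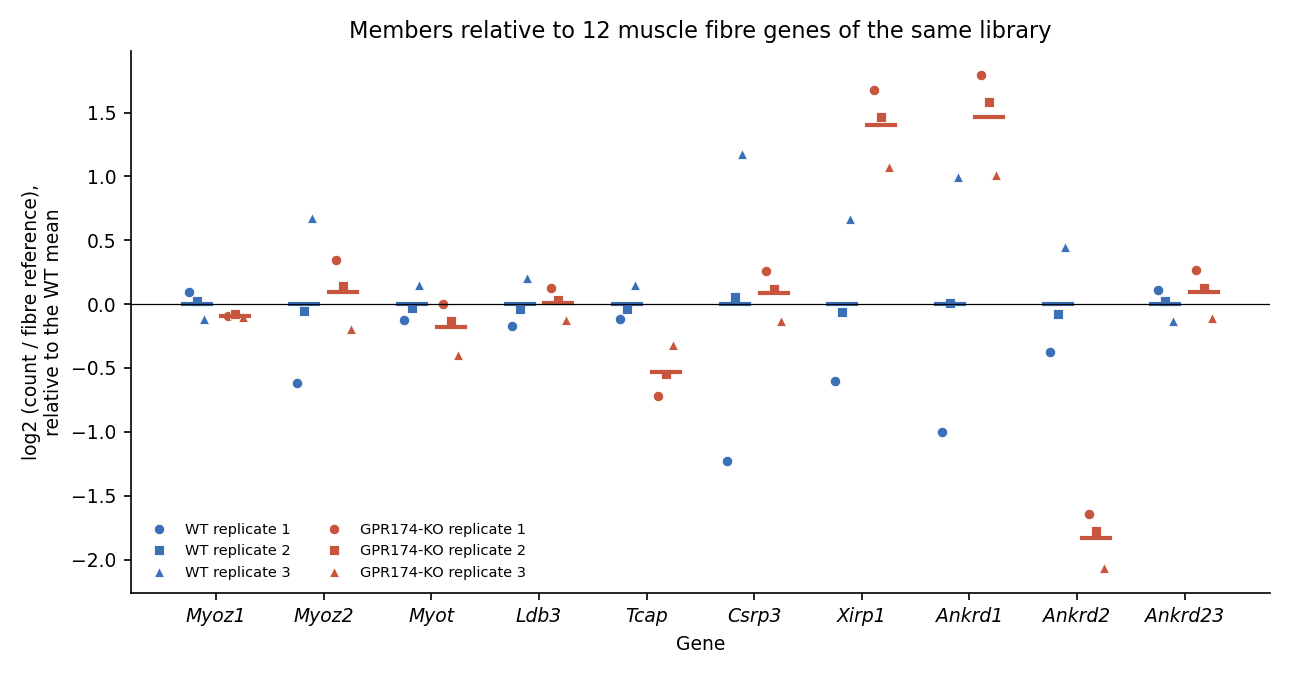
Log2 of each member's count over the geometric mean count of 12 fibre genes in the same library, drawn relative to the WT mean of each gene, with a bar for the group mean. *Ankrd1* and *Xirp1* lie above the WT libraries, *Tcap* and *Ankrd2* below them, and the other 6 members within 0.2 of the WT mean on average.

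Most members had 1 dominant transcript, but *Xirp1*, listed with 3, did not. Its main one held 42.0%, 54.6% and 57.2% of its counts in WT and 39.8%, 40.9% and 42.9% in GPR174-KO. *Myoz1*, *Tcap* and *Ankrd1* were listed with a single transcript, and the main transcript of *Csrp3* held at least 99.4% of its counts in every library. *Ldb3* was listed with 9 transcripts, since it is made in long forms with LIM domains and a short form without them. The 2 short coding transcripts (288 and 327 codons in GENCODE M21) held 59.7%, 58.1% and 54.6% of *Ldb3* counts in WT and 53.5%, 53.4% and 56.4% in GPR174-KO. The shares of these 2 placed transcripts overlapped between genotypes. The 4 long transcripts (622 to 684 codons) held 15.4%, 15.1% and 21.5% in WT and 30.3%, 30.5% and 32.1% in GPR174-KO. Their share was higher in every GPR174-KO library, while their level was lower in every one, at 300, 287 and 394 CPM in WT and 281, 262 and 244 CPM in GPR174-KO. For these 4 transcripts that separation was small and turned with the scaling. Their unscaled counts overlapped, at 4818, 4821 and 7008 in WT and 5879, 5553 and 5238 in GPR174-KO. The 3 predicted transcripts with no coding length at hand moved the other way, from 25.2% ± 1.50 to 14.6% ± 2.69 (SD, n = 3). In GPR174-KO replicate 2 the largest of them had 1564 counts at 17.25 FPKM. The main long transcript had 3639 at 38.3 and the main short one 9709 at 344, so the predicted one was nearer the long form in counts per FPKM. Another predicted one had 801 counts at 28.56 FPKM in that library, nearer the main short form on the same measure. It held 7.02%, 6.75% and 7.75% of *Ldb3* counts in WT and 5.18%, 4.40% and 0.0145% in GPR174-KO. The shares and levels given for the short and long classes therefore cover only the placed transcripts and may leave out forms of either class. The overlap of the short shares may not hold with such forms added. One long transcript of 679 codons was estimated at 0 counts in all WT libraries and at 911, 828 and 1808 unscaled counts in GPR174-KO. Such shares are estimates that divide reads among forms with common exons, and no test was made.

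**Figure D5:**
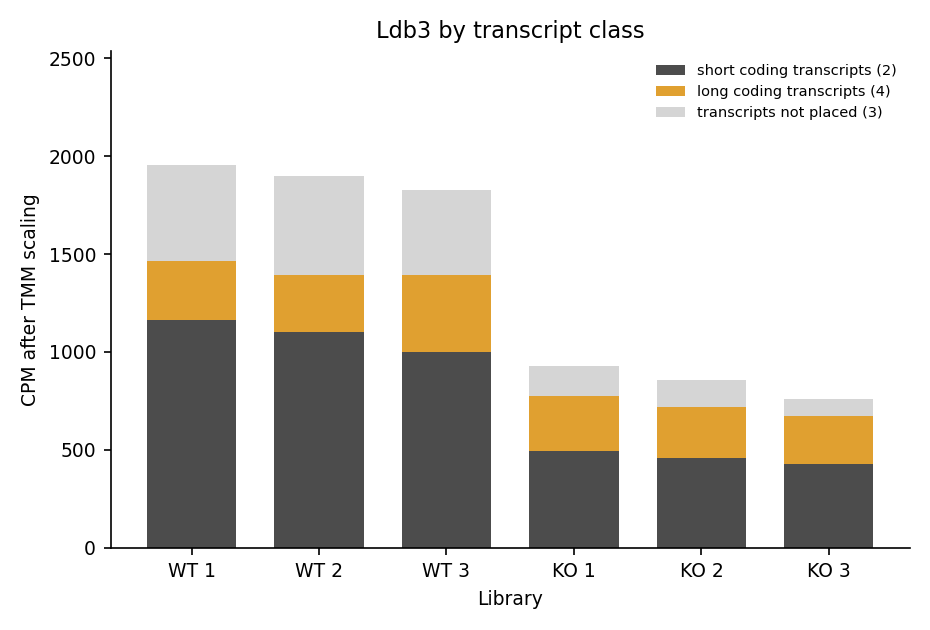
*Ldb3* in each library, in CPM after TMM scaling, stacked by transcript class: 2 short coding transcripts, 4 long coding transcripts and 3 transcripts with no coding length at hand. The dark short class lies between 999 and 1166 CPM in WT and between 428 and 495 CPM in GPR174-KO, and the orange long class between 287 and 394 CPM and between 244 and 281 CPM.

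All 31 other Z-disc genes of a list were tested with edgeR's quasi-likelihood test. At an adjusted p of 0.05, 24 were lower and 3 higher in GPR174-KO muscles (median log2 fold change -0.69). Of all tested genes 27.6% were lower and 27% higher. With total-count scaling 18 of the 31 were lower and 5 higher, against 2010 and 7303 of the 14395 tested genes. Without any 1 library at least 21 of the 31 were lower, where at least 2806 of all tested genes were. The largest decreases were in *Xirp2*, the relative of *Xirp1* (1452 ± 332 CPM in WT and 448 ± 51.4 in GPR174-KO, SD, n = 3; log2 fold change -1.70), and in *Actn3*, the alpha-actinin of fast fibres (-1.41). The 2 Xin repeat genes thus gave different values, -1.70 for *Xirp2* and 0.22 for *Xirp1*, a difference that was not itself tested. The largest increases were in *Csrp2*, a relative of *Csrp3* found in smooth muscle and fibroblasts (39.6 ± 22.1 CPM in WT and 98.7 ± 5.16 in GPR174-KO; log2 fold change 1.31), and in *Palld*, which encodes the actin scaffold palladin (0.72). Both passed the test in the direction opposite to the 8 lower members, although *Csrp2* did not pass without WT replicate 2 (adjusted p = 0.0739 in edgeR's quasi-likelihood test) or without any 1 of the GPR174-KO replicates (0.0555 to 0.0618).

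Calcineurin, which the calsarcins tether, and its NFAT targets were described by 11 genes. Of these, 6 were lower and 2 higher (median -0.40), where 27.6% of all tested genes were lower and 27% higher. All 4 calcineurin subunit genes listed were among the lower ones, although with total-count scaling *Ppp3cb* (adjusted p = 0.10) and *Ppp3cc* (adjusted p = 0.15), named after their values were seen, did not pass edgeR's test. The largest decreases were in the calcineurin regulators *Rcan2* (log2 fold change -1.41, SE 0.20) and *Rcan1* (-1.08, SE 0.23). *Rcan3* (0.37) and the transcription factor gene *Nfatc2* (0.35) were higher. With total-count scaling the list had 4 lower and 5 higher genes, in a fit where 2010 of 14395 genes were lower and 7303 higher. The list's median minus that of all genes was -0.41 with TMM and with total counts. *Rcan2* and *Rcan1* were lower under either scaling, and *Nfatc2* did not pass without WT replicate 2 (adjusted p = 0.0593) or GPR174-KO replicate 1 (0.0536).

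*Ankrd1* is a usual target of the coactivator YAP with its TEAD partners. Of 18 genes of that pathway 2 were lower and 8 higher (median 0.22), where 27.6% of all tested genes were lower and 27% higher. *Fjx1* (4.85, 9.46 and 15.8 CPM in WT, 24.3, 23.5 and 21.9 CPM in GPR174-KO) and *Tead4* (log2 fold change 0.81, SE 0.07) rose most, and *Amotl1* (-0.88, SE 0.08) and *Crim1* (-0.40, SE 0.07) fell most. The well known targets *Ccn1* (0.46, adjusted p = 0.0685) and *Ccn2* (0.51, adjusted p = 0.0650), both chosen after their values were seen, did not pass edgeR's quasi-likelihood test, nor did *Ankrd1* itself. With total-count scaling 1 was lower and 14 higher, where 2010 of all 14395 genes were lower and 7303 higher. Without WT replicate 3 there were 3 lower and 13 higher, where 4539 of 14587 genes were lower and 4626 higher. The list's median minus that of all genes was 0.22 with TMM, 0.22 with total counts and 0.26 without WT replicate 3. *Crim1* did not pass with total counts (adjusted p = 0.153), and *Fjx1* did not pass without WT replicate 2 (0.0764) or without any 1 of the GPR174-KO replicates (0.0575 to 0.0662).

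Fibre type genes were set beside the members, where 27.6% of all tested genes were lower and 27% higher. All 11 fast fibre genes were lower (median -1.45), with *Myh2*, the myosin of type IIa fibres (-2.80), and *Pvalb*, the calcium buffer parvalbumin (-2.34), lowest. Of 8 slow fibre genes 3 were lower and 2 higher: the myosin light chain genes *Myl2* (-4.29) and *Myl3* (-4.11) fell most, whereas *Tnnc1* (1.09) and *Tpm3* (0.37) rose, the last with an adjusted p of 0.0587 without WT replicate 2 and 0.0570 without GPR174-KO replicate 2 in edgeR's quasi-likelihood test. *Mb*, encoding myoglobin (-2.02), and *Casq1*, encoding calsequestrin (-1.63), fell most in the fibre reference. Of 12 genes of embryonic and regenerating fibres, 0 were lower and 9 higher (median 1.07), with *Mymx*, needed for myoblast fusion (1.84), and *Chrng*, the fetal acetylcholine receptor subunit (1.68), highest. The part of fibre makeup in the members' differences was not tested.

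Markers of some other cells differed between genotypes as well, where 27.6% of all tested genes were lower and 27% higher. Monocyte and macrophage markers were higher in 7 of 8 genes and summed to between 1090 and 1581 CPM in WT and between 2582 and 2608 CPM in GPR174-KO. Endothelial markers were lower in 7 of 8 genes, at 935 to 1095 CPM in WT and 597 to 675 CPM in GPR174-KO. Fibroblast markers gave 3 lower and 2 higher calls of 6, with sums of 11951 to 16857 CPM and 20707 to 23711 CPM. Of the other lists, satellite cell genes gave 1 lower and 3 higher of 6, smooth muscle genes 2 and 3 of 7 and tendon genes 4 and 2 of 6. Adipocyte genes gave 0 and 2 of 5, Schwann cell genes 1 and 0 of 5 and T cell genes 0 and 0 of 5 tested (7 listed). Few neutrophil and heart muscle genes were tested, with 1 and 1 of 2 (6 listed) and 0 and 0 of 1 (6 listed). The sum of the fast fibre genes was 93356 to 141963 CPM in WT and 40229 to 44654 CPM in GPR174-KO, in the direction of the 8 lower members. The part of cell makeup in these results was not tested.

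Genes whose pattern over the 6 libraries was most like that of the extreme members were named by Pearson's r of log2 CPM over 9947 candidates. For *Ankrd2*, the member with the largest decrease, these were *Asph*, *Lum* and *Nfe2l1*, each with r of at least 0.999653 over 6 libraries, although their own log2 fold changes were between -0.81 and -0.69. For *Xirp1*, which had the highest log2 fold change of the members in the edgeR fit but did not pass the test, they were *Endov*, *Igfbp3* and *Chga*, each with r of at least 0.997 and log2 fold changes between 0.04 and 0.18. The points share 2 genotypes and the same 6 libraries, and r reflects the shape of a profile and not its size.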

How the data were processed

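RNA-seq was performed on ischemic gastrocnemius muscles of 3 WT and 3 GPR174-KO mice. In the table deposited by the authors, each of 58843 RefSeq transcripts has an expected count per library, an estimate that was not normalized, and an FPKM value, which the authors scaled for length and library size. The deposited TPM values and group averages were not used. The submitters' processing notes name HISAT2 2.0.4, Bowtie2 2.2.5, RSEM 1.2.12 and GRCm39, and strand use was not given in the sources used here. Reads shared by transcripts are divided by estimation, so transcript values are less certain than gene sums.

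Samples were grouped by genotype from their labels. Transcripts of 1 Entrez identifier were added up and the sums rounded, which gave 18089 genes (99.7% with a symbol). Genes were compared with edgeR 4.0.16 (filterByExpr, TMM scaling, quasi-likelihood F-test with robust fitting; R 4.3.3), with calls at an adjusted p of 0.05 and also at an absolute log2 fold change of 1. The common dispersion was 0.00967. The 10 members and all gene lists were chosen with earlier results of these data known. Named genes were the members, *Gpr174*, of each list the 2 largest increases and 2 largest decreases past the threshold (for cell marker lists counts are given instead), and the 3 genes most like the 2 extreme members. Same-numbered samples are of different genotypes, and the correlation of their deviations was between 0.005 and 0.050. No pattern shared by number was seen, which cannot exclude a pairing, and samples were taken as unpaired. Ratios were compared by 2-sided exact permutation tests. Depth limits only the counting error, and intervals between mice rest on 3 libraries a group.

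Alternatives were DESeq2 1.42.0 size factors and Wald test, upper-quartile and total-count scaling, limma 3.58.1 voom, a minimum of 10 counts per library, no filter at all, each library left out, limma on FPKM (genes at 1 or more in 3 libraries) as log2(FPKM + 1) or as log2(FPKM + 0.1), replicates 1 and 3 only, and a replicate block. Other scripts used Python 3.11.15 and scipy 1.17.1. Sequences are from RefSeq promoter entries of GRCm38.p6, and coordinates were not converted between builds.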

Additional observations from a re-analysis of the deposited data

How the results depend on the processing

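Of 170 values of the 10 members under 17 alternatives, 150 held both direction and call, 19 held the direction and lost the call, and 1 reversed: *Ankrd1*, at -0.10 without WT replicate 1 (up to 0.64 without WT replicate 3). Of the 19, 12 were those of *Csrp3*, and the other 7 were with replicates 1 and 3 only. The number of members lower was 7 or 8 in every alternative but that one, where it was 0, and it lay between 7 and 8 when a library was left out. In the alternatives with 7 or 8, between 1822 and 4539 of all tested genes were lower (12525 to 18034 tested). The number past both thresholds was 4 with total counts, 3 with limma on log2(FPKM + 1), 3 with limma on log2(FPKM + 0.1), 0 with replicates 1 and 3 only, and between 5 and 7 when a library was left out. Among all tested genes, 1498, 645, 1113 and 0 passed both in these fits, and between 924 and 1826 with a library left out. No member was higher in any alternative. With total counts 7303 genes were higher and 2010 lower, against 3891 and 3972 with TMM, and the cause was not tested. The replicate block gave 7 lower members, 7 past both thresholds and 26 of the other 31 Z-disc genes past the threshold (27 without it), with *Csrp3* at an adjusted p of 0.126, and changed no other call among the members. Without a library, 22 to 29 of the other Z-disc genes passed, where 5457 to 9165 of all tested genes did. With replicates 1 and 3 only, 0 of the other Z-disc genes passed. The *Myoz2* to *Myoz1* difference in the mean log2 ratio was -0.17 without WT replicate 1 and between -0.17 and 0.58 over all libraries left out, the *Ankrd1* to *Ankrd2* difference was between 2.98 and 3.57, and the *Ankrd1* to *Ankrd23* difference was between 0.81 and 1.94. Members lower relative to the fibre reference numbered 2 with fast fibre genes as the reference and between 4 and 7 when a library was left out. The causes of these shifts were not tested. With 3 libraries a group, the exact tests cannot give a p under 0.1.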
